A study of Arabidopsis thaliana and Zea mays with 36 samples.

Results

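The 36 genes described here are nuclear genes of Arabidopsis thaliana for subunits of the photosynthetic electron transport chain. They were chosen by their locus identifiers from a list of subunits, by a rule that uses no measured value. The choice was made with earlier results of these data known. The list holds 10 genes of photosystem II, 12 of photosystem I and 4 of the cytochrome b6f complex and plastocyanin. A further 4 are of ferredoxin and its reductase, 3 of the chloroplast ATP synthase and 3 of cyclic electron flow. These are 36 of the 27655 genes listed for linear RNA, and all 36 were among the 18938 genes that passed the filter on low values. AT2G26500, counted on the list with the cytochrome b6f complex, has no symbol in the RefSeq table used here and is printed by its identifier.

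In the thylakoid membrane of the chloroplast, photosystem II takes electrons from water at its lumenal side, the cytochrome b6f complex passes them to plastocyanin, and photosystem I lifts them to ferredoxin, from which ferredoxin-NADP+ reductase makes NADPH. The proton gradient built along the way drives the ATP synthase, and cyclic flow returns electrons from ferredoxin to the chain so that ATP is made without NADPH. The reaction centre proteins are encoded in the plastid, while the extrinsic, docking and small subunits, the mobile carriers and several ATP synthase subunits come from the nucleus, often from pairs of similar genes (paralogs), and their transcripts are among the most abundant of a green leaf.

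Rosette leaves of the ecotype Col-0 were sampled from well-watered plants (WW) and from plants at 4 drought levels labelled DT2, DT3, DT4 and DT5. All plants were grown at 22 °C with 16 h light and 8 h dark, watering was restricted from 21 days after planting, and leaves of 4 plants were pooled for RNA, per the labels' protocols. Each group had 2 libraries of linear RNA and 2 of circular RNA (circRNA), which was enriched by digesting linear RNA with RNase R; these are 20 of the 36 samples of the series, whose maize samples were not used here. The sources used here do not give the soil moisture of the levels, so the levels are treated as named groups, and the study's purpose as stated in its title is the response to drought. The design text calls the libraries biological replicates.

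Linear RNA was deposited as TPM, a level normalised to transcript length, with each library scaled to the same total. Sequencing depth is thus unknown, and precision is known only from the spread between the libraries of a group. Between 16814 and 17885 genes reached a TPM of 1 per library, the correlations between the libraries of a group ran from 0.977 to 0.988, and every library was most like its own group mate. Changes are on the scale of log2(TPM + 1) from a limma fit to all 10 libraries, each with its standard error (SE), and a gene is called lower or higher at a Benjamini-Hochberg adjusted p under 0.05 over all genes tested. The fit pools this spread over the 5 groups and moderates it over all genes tested, so a gene has the same SE in every comparison. Unlike libraries in 1 group thus widen the SE at all levels. Comparisons against WW share the same 2 control libraries. Of the marker genes checked, the 3 mesophyll markers summed to 46309 to 49533 TPM in WW, as in a green leaf, and the 3 root markers were at 0 in WW and reached at most 0.21 TPM in sum elsewhere. RNA of a whole leaf was measured, so fewer cells of a type and less RNA per cell cannot be told apart.

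Together the 36 genes made up 9.68% and 10.0% of all TPM in the WW libraries, 9.25% and 8.84% at DT2, 8.01% and 8.07% at DT3, 3.42% and 4.34% at DT4, and 1.23% and 1.18% at DT5. The share was below that of both WW libraries at DT2 and lower again at DT3, and at DT4 and DT5 no library came near the earlier groups. Summed over the genes, the level was 98635 ± 2534 TPM (SD, n = 2) in WW and 12015 ± 370 TPM at DT5, which is 12.2% of WW. In WW 27 of the 36 genes were among the 100 genes with the highest TPM in these libraries, and 28 had a mean over 1000 TPM. At DT4 14 and 13 were left, and at DT5 2 and 2, PSBR and PSAL. These ranks and shares hold for the RNA that the libraries kept.

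**Figure D1:**
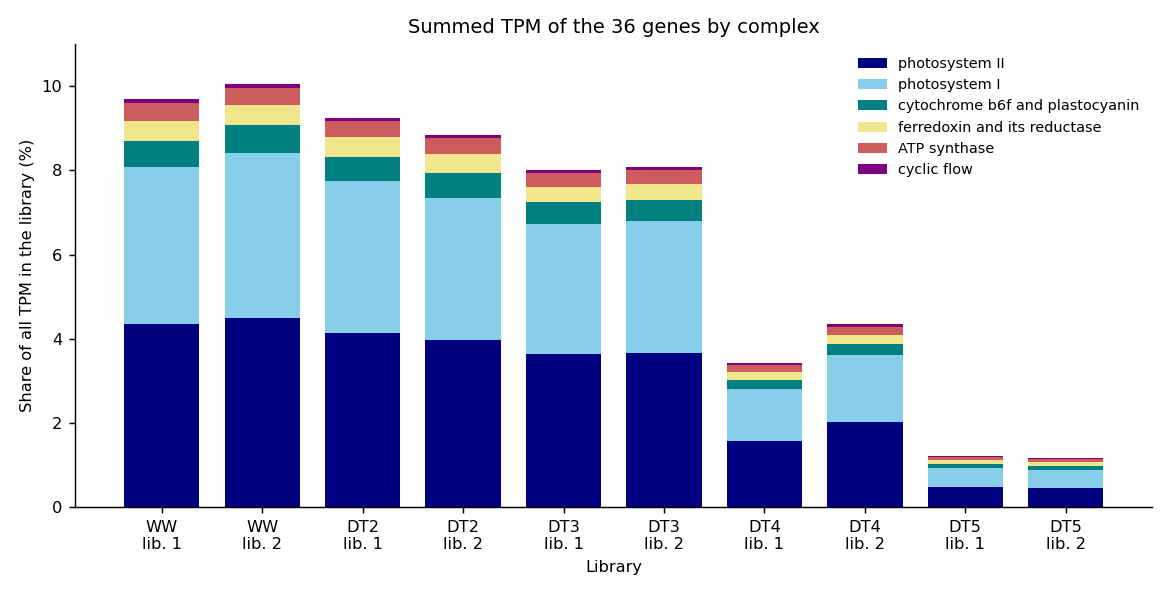
Summed TPM of the 36 genes as a share of all TPM (vertical axis, %) in each of the 10 libraries of linear RNA (horizontal axis), stacked by complex. The bars are near 10% in WW and near 1.2% at DT5, and the DT4 libraries differ from each other (3.42% and 4.34%).

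Against WW, 1 of the 36 genes was called lower at DT2 and none higher, where 0.412% of all genes tested were called lower and 1.47% higher. At DT3 4 were lower and none higher, against a background of 2.22% and 14.5%. At DT4 35 were lower and 1 higher, with 16.4% of all genes lower and 48.3% higher, and at DT5 again 35 were lower and 1 higher, with 28.1% and 43.4%. The gene that was higher at DT4 and at DT5 was PGRL1B, of cyclic flow. The median log2 change of the 36 genes was -0.12 (DT2), -0.27 (DT3), -1.29 (DT4) and -3.02 (DT5), beside 0.12, 0.22, 0.41 and 0.26 over all genes tested. At unadjusted p under 0.05, 2 of the 36 were lower at DT2 and 16 at DT3, and 0 and 2 were higher. The shares of all genes at this unadjusted threshold were not computed, so these 4 counts have no background beside them.

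Because the genes tested as a whole shifted upward in TPM, the split of calls depends on the scaling. With the libraries rescaled by trimmed-mean factors, 35.1% of all genes were lower and 33.5% higher at DT5, 27.3% and 25.6% at DT4, 6.08% and 4.84% at DT3, and 0.681% and 0.803% at DT2. The members' medians were then -0.26, -0.53, -1.74 and -3.32 in the order of the levels, and their counts at DT2, DT4 and DT5 were the same as above, while at DT3 16 were lower in place of 4.

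The steps between neighbouring levels placed most of the fall late. From DT2 to DT3 0 of the 36 genes were called in either direction by limma, 2 were lower at unadjusted p under 0.05, and 0.0211% of all genes were called lower and 0.0581% higher. From DT3 to DT4 33 were lower and 1 higher, where 20.0% of all genes were lower and 33.6% higher. From DT4 to DT5 33 were lower and none higher, with 30.3% and 16.0% of all genes. At unadjusted p under 0.05, 1 gene was higher in this last step. For the unadjusted counts of these steps the shares of all genes were not computed. The median step was -0.12 from WW to DT2, -0.15 from DT2 to DT3, -1.03 from DT3 to DT4 and -1.77 from DT4 to DT5. In 31 genes the largest fall was the last step; it was the step to DT4 in PETC, FD1 and ATPD, and the step to DT2 in PGR5. The group means fell at every step in 28 of the 36 genes.

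The DT4 libraries were the least alike. Library 1 was below library 2 in 34 of the 36 genes, by a median of 0.34 and at most 0.67 on the log2 scale, beside a median of 0.06 between the WW libraries. Without DT4 library 1, 34 genes were called lower at DT4 against WW, and without DT4 library 2, 35. Genes high in WW fell more at DT5: across the 36 genes Spearman's rho between the WW level and the change was -0.53, a description across genes, which are not independent replicates and share their libraries. The WW level also enters the change with the opposite sign, which by itself pulls rho downward. A rho over all genes was not computed.

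**Figure D2:**
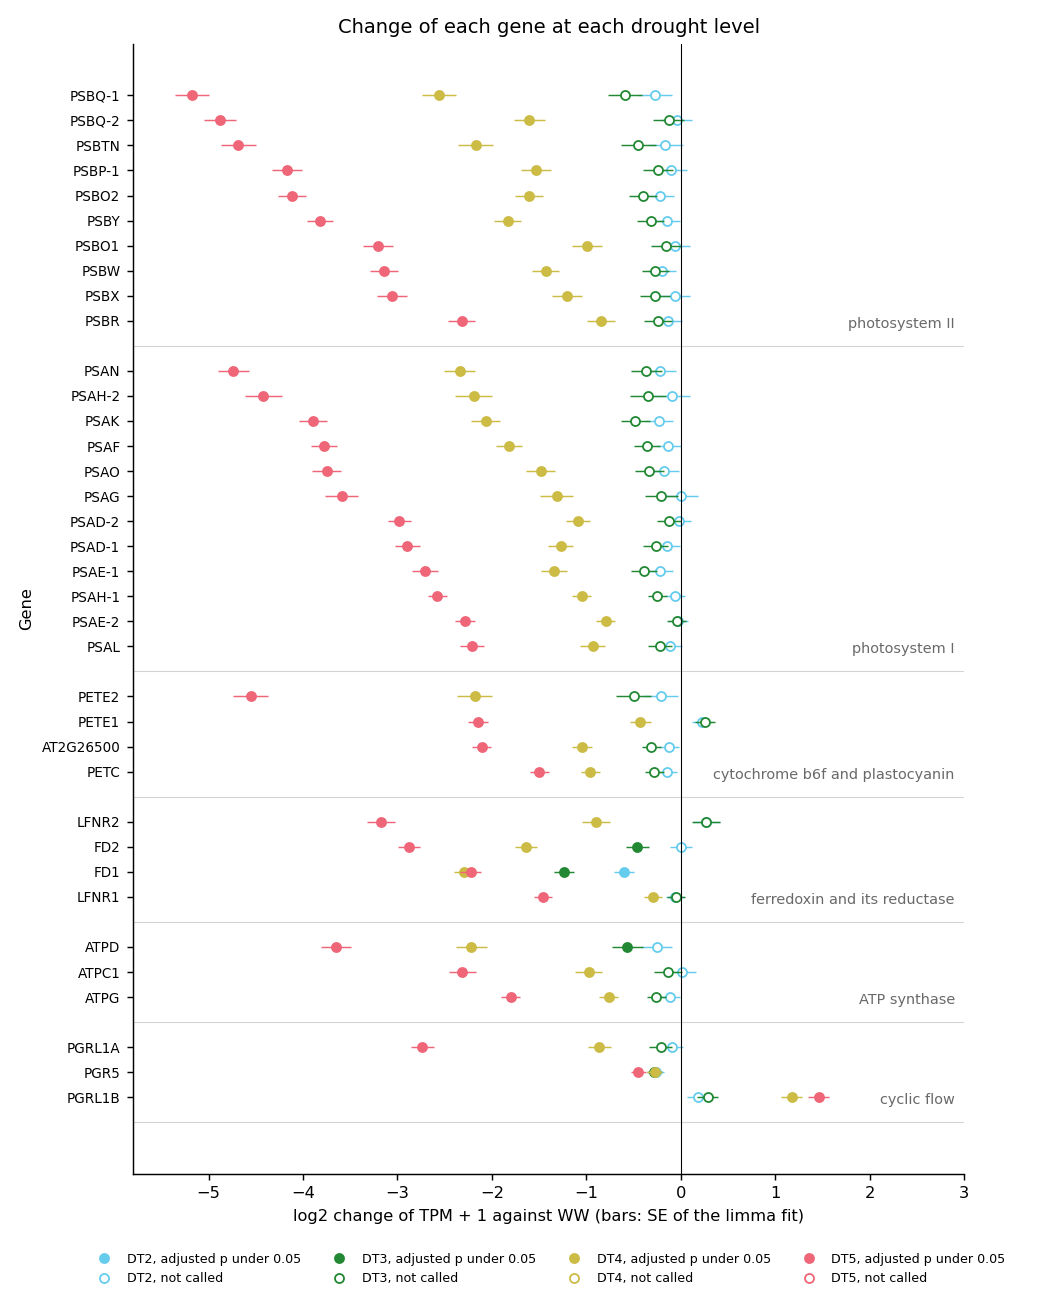
log2 change of TPM + 1 against WW (horizontal axis) of each of the 36 genes (vertical axis, by complex), at DT2, DT3, DT4 and DT5, with bars for the SE of the limma fit. Filled points passed an adjusted p of 0.05. All but PGRL1B lie left of 0 at DT4 and DT5, and PGR5 lies nearest to 0.

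The 10 genes of photosystem II were all lower at DT4 and at DT5, and none was called at DT2 or DT3. Their summed level was 44229 ± 932 TPM in WW, 40564 ± 1213 at DT2, 36540 ± 213 at DT3, then 17920 ± 3195 at DT4 and 4710 ± 254 at DT5 (SD, n = 2), and 10.7% of WW remained at DT5. With a median log2 change of -3.97 at DT5, this was the lowest median of the 6 groups of genes, from -2.32 to -5.18. The largest fall at DT5 among all 36 genes belonged to the extrinsic subunit PSBQ-1 and the smallest fall in the complex to PSBR.

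PSBQ proteins sit on the lumenal face of the oxygen-evolving complex. PSBQ-1 (AT4G21280) was at 2303 and 2414 TPM in the WW libraries, 1947 and 1945 at DT2, 1649.8 and 1493 at DT3, 316 and 501 at DT4 and 67.7 and 61.0 at DT5. For PSBQ-2 (AT4G05180) the values were 3684 and 3649.8 TPM in WW, 3557 and 3563 at DT2, 3339 and 3373 at DT3, 995 and 1459 at DT4 and 133 and 115 at DT5. Both genes were lower in each DT4 and DT5 library than in either WW library, and at DT5 each group's libraries lay close together. At DT5 the log2 change was -5.18 (SE 0.18, adjusted p = 1.92e-08) for PSBQ-1 and -4.88 (SE 0.17, adjusted p = 1.83e-08) for PSBQ-2, so that 2.73% and 3.38% of the WW mean were left. At DT4 PSBQ-1 had already gone to 17.3% and PSBQ-2 to 33.5%.

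PSBO, the manganese-stabilising protein of the same complex, also comes from a pair of genes. The libraries held 5067 and 5106 TPM of PSBO1 (AT5G66570) in WW, 5068 and 4662 at DT2, 4567 and 4579 at DT3, 2276 and 2853 at DT4 and 626 and 486 at DT5. PSBO2 (AT3G50820) was at 1998 and 2137 TPM in the WW libraries, 1805 and 1745 at DT2, 1564 and 1568 at DT3, 576 and 797 at DT4 and 126 and 111 at DT5. PSBO1 overlapped between WW and DT2, and both genes were below every WW library from DT3 on. The change at DT5 was -3.20 (SE 0.16, adjusted p = 9.68e-08) for PSBO1 and -4.12 (SE 0.15, adjusted p = 2.06e-08) for PSBO2. PSBP-1 (AT1G06680), the third extrinsic protein, averaged 4159 ± 189 TPM (SD, n = 2) in WW and 230.2 ± 20.2 TPM at DT5, a log2 change of -4.17.

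PSBR, a small protein that helps to bind the extrinsic subunits, was the most abundant of the 36 transcripts in WW. In WW, PSBR (AT1G79040) stood at 11321 and 11365 TPM, followed by 10493 and 10120 at DT2, 9326 and 9859 at DT3, 5848 and 6791 at DT4 and 2333 and 2203 at DT5. Every library of DT4 was below those of DT3, and every library of DT5 below those of DT4. Its change was -0.85 (SE 0.15, adjusted p = 7.23e-04) at DT4 and -2.32 (SE 0.15, adjusted p = 4.40e-07) at DT5, and it was the most abundant of the 36 at DT5 too. The step from DT3 to DT4 had an adjusted p of 0.00661, and was not called without the filter on low values (0.0656) or in a fit to the 4 libraries alone (0.149), and in such a fit the change at DT4 against WW was not called either (0.0536). Among the other small subunits, PSBTN (AT3G21055) was left with 3.87% of its WW level at DT5, PSBY (AT1G67740) with 7.06%, PSBW (AT2G30570), which lies between the core and its light-harvesting antenna, with 11.3%, and PSBX (AT2G06520) with 12%. Their log2 changes were -4.68, -3.82, -3.14 and -3.06.

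**Figure D3:**
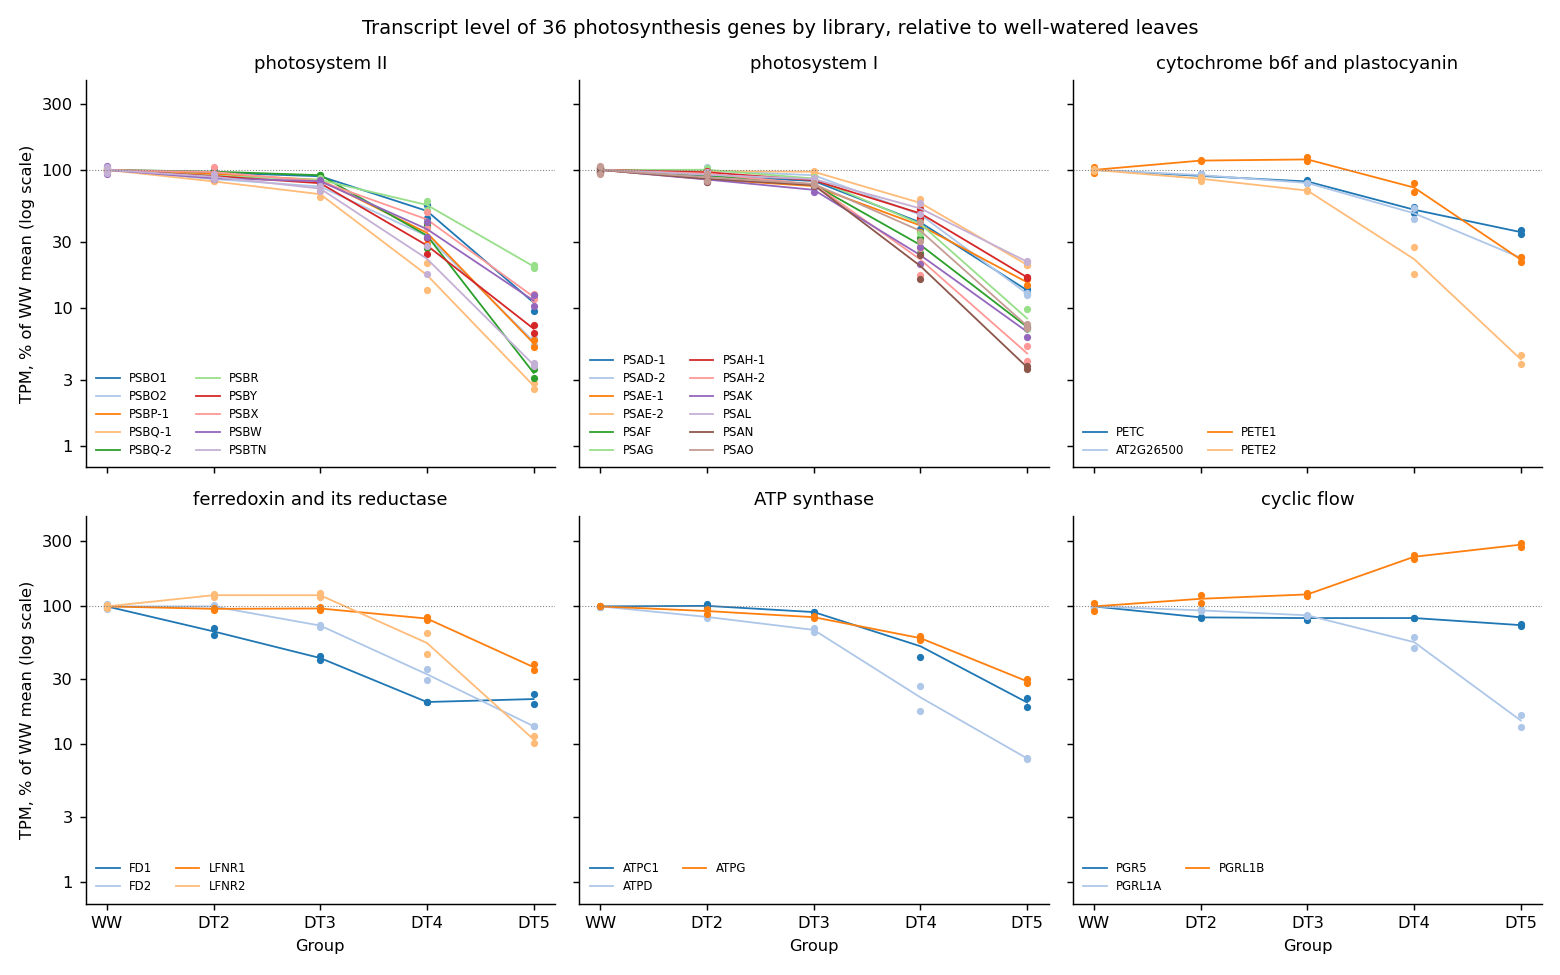
TPM of each gene as a percentage of its WW mean (vertical axis, log scale) in the groups WW to DT5 (horizontal axis), 1 panel per complex. Points are the 2 libraries of a group and lines join the group means. At DT2 25 of the 36 genes and at DT3 32 lie below both of their WW libraries, with medians of 92% and 82.7% of WW. The share of all genes that do so was not computed, and limma called 1 and 4 of the 36 lower at these levels. FD1 is the lowest at DT2 (65.9%), PGR5 ends at 73.2% and PGRL1B at 280%.

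Among the 12 genes of photosystem I, none was called at DT2 or DT3 and all 12 were lower at DT4 and at DT5. Their sum was 38250 ± 1550 TPM in WW, 34892 ± 1662 at DT2, 31083 ± 213 at DT3, then 14165 ± 2402 at DT4 and 4329 ± 1.07 at DT5 (SD, n = 2), and the median log2 change at DT5 was -3.29, with a range of -2.21 to -4.74. The ratio of the photosystem I sum to the photosystem II sum was 0.853 and 0.876 in the WW libraries, 0.871 and 0.849 at DT2, 0.850 and 0.851 at DT3, 0.796 and 0.786 at DT4, and 0.885 and 0.955 at DT5. It was lower at DT4 than in any other library and highest at DT5, and it was not tested.

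PSAN, a lumenal subunit on the side where plastocyanin docks, fell most. PSAN (AT5G64040) was at 2929.5 and 3129 TPM in the WW libraries, 2467 and 2754 at DT2, 2398 and 2302 at DT3, 489.7 and 727 at DT4 and 109.7 and 115 at DT5. The DT5 libraries were nearly equal, and the DT4 libraries stood apart from each other and from both neighbouring groups. Its log2 change was -2.34 (SE 0.16, adjusted p = 3.40e-06) at DT4 and -4.74 (SE 0.16, adjusted p = 1.92e-08) at DT5. PSAF (AT1G31330), which forms the plastocyanin docking site, was left with 7.27% of WW at DT5, a log2 change of -3.78. PSAL, at the side where light-harvesting complex II can dock, fell least in the complex. For PSAL (AT4G12800) the values were 4796 and 5054 TPM in WW, 4721 and 4363 at DT2, 4124 and 4325 at DT3, 2357 and 2816 at DT4 and 1051 and 1075 at DT5. No DT4 or DT5 library reached the WW range, and the change at DT5 was -2.21 (SE 0.13, adjusted p = 2.96e-07).

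PSAH lies beside PSAL and is encoded by a pair. In WW, PSAH-1 (AT3G16140) stood at 1001 and 1063 TPM, followed by 1015 and 968 at DT2, 874 and 863 at DT3, 463 and 534 at DT4 and 170.2 and 173 at DT5. The libraries held 3657 and 3564 TPM of PSAH-2 (AT1G52230) in WW, 3459.6 and 3317 at DT2, 2866 and 2816 at DT3, 629.9 and 986 at DT4 and 189.7 and 148 at DT5. PSAH-2 was the higher of the pair in every library up to DT4, and at DT5 it was higher in library 1 and lower in library 2. The changes at DT5 were -2.58 (SE 0.10, adjusted p = 2.64e-08) and -4.42 (SE 0.19, adjusted p = 4.80e-08). PSAO (AT1G08380), of the same side of the complex, was left with 7.4% of WW, and PSAG (AT1G55670) and PSAK (AT1G30380), a related pair of subunits at the edge of the core, with 8.38% and 6.71%. Their log2 changes were -3.75, -3.59 and -3.89.

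PSAD and PSAE form the stromal platform to which ferredoxin binds. For PSAD-1 (AT4G02770) the values were 2867 and 3080.2 TPM in WW, 2859 and 2539 at DT2, 2383 and 2560.3 at DT3, 1113 and 1357 at DT4 and 409 and 389 at DT5. PSAD-2 (AT1G03130) was at 2629 and 2670 TPM in the WW libraries, 2767 and 2472 at DT2, 2415 and 2430.3 at DT3, 1122 and 1385 at DT4 and 342 and 329 at DT5. The libraries held 4777 and 5288 TPM of PSAE-1 (AT4G28750) in WW, 4424 and 4191 at DT2, 3856 and 3823 at DT3, 1773 and 2203 at DT4 and 733 and 809 at DT5. All PSAD values at DT4 were under those of DT3, and PSAD-2 overlapped between WW and DT2. In WW, PSAE-2 (AT2G20260) stood at 1466 and 1584 TPM, followed by 1501 and 1490.3 at DT2, 1449 and 1504 at DT3, 819 and 937 at DT4 and 313 and 312 at DT5. PSAE-2 overlapped with WW at DT2 and at DT3. The log2 changes at DT5 were -2.90, -2.98, -2.71 and -2.28, with SE from 0.10 to 0.14 and adjusted p from 3.98e-08 to 1.21e-07.

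Among the genes of the cytochrome b6f complex and plastocyanin, none of the 4 was called at DT2 or DT3 and all 4 were lower at DT4 and DT5, with a median of -2.13 at DT5. PETC, the Rieske iron-sulfur protein of the complex, fell least. PETC (AT4G03280) was at 1393 and 1452 TPM in the WW libraries, 1254 and 1318 at DT2, 1139 and 1204 at DT3, 696 and 768 at DT4 and 523 and 484 at DT5. Its libraries went down at each level without overlap between neighbouring groups from DT3 on, and the change was -1.50 (SE 0.10, adjusted p = 7.71e-07) at DT5, with the larger step from DT3 to DT4 (-0.68) and -0.54 after it. AT2G26500 averaged 730.0 ± 22.1 TPM (SD, n = 2) in WW and 168 ± 2.47 TPM at DT5, a log2 change of -2.11.

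Plastocyanin, the copper protein that carries electrons to photosystem I, is encoded by PETE1 and PETE2. The libraries held 596 and 649 TPM of PETE1 (AT1G76100) in WW, 734 and 720.2 at DT2, 716 and 766 at DT3, 428 and 499.7 at DT4 and 145 and 134 at DT5. For PETE2 (AT1G20340) the values were 3587 and 3717 TPM in WW, 3033 and 3268 at DT2, 2603 and 2566 at DT3, 639 and 1009 at DT4 and 166 and 144 at DT5. Both DT2 and both DT3 libraries of PETE1 were above those of WW, and both were below for PETE2. The rise of PETE1 did not pass the test, at 0.22 (SE 0.11, adjusted p = 0.332) at DT2 and 0.25 (SE 0.11, adjusted p = 0.126) at DT3, and with trimmed-mean rescaling it was not called either. At DT4 PETE1 changed by -0.43 (SE 0.11, adjusted p = 0.00575), and this call was lost without WW library 2 (adjusted p = 0.0521). PETE2 changed by -2.18 (SE 0.18, adjusted p = 9.53e-06) at DT4. At DT5 the changes were -2.15 (SE 0.11, adjusted p = 9.78e-08) and -4.55 (SE 0.18, adjusted p = 3.33e-08).

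The ferredoxins are iron-sulfur proteins that receive the electrons of photosystem I. FD1 was called from DT2 on, and FD2, like ATPD and PGR5, from DT3 on. FD2 is known as the more abundant leaf ferredoxin and was so in all 10 libraries. In WW, FD1 (AT1G10960) stood at 639.6 and 679 TPM, followed by 457 and 412 at DT2, 289 and 268 at DT3, 134 and 133 at DT4 and 129 and 152 at DT5. FD2 (AT1G60950) was at 2819 and 2599 TPM in the WW libraries, 2783 and 2635 at DT2, 1998 and 1937 at DT3, 791 and 957 at DT4 and 366 and 368 at DT5. FD1 went down at each level to DT4 with no overlap between neighbouring groups, and at DT5 its libraries lay on either side of those of DT4. FD2 at DT2 lay within the range of WW, and it was below every WW library from DT3 on.

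FD1 changed by -0.60 (SE 0.11, adjusted p = 0.0235) at DT2, where it was the only member called, by -1.24 (SE 0.11, adjusted p = 2.67e-04) at DT3, by -2.29 (SE 0.11, adjusted p = 4.43e-07) at DT4 and by -2.23 (SE 0.11, adjusted p = 8.09e-08) at DT5. The call at DT2 was lost when any 1 of the 4 libraries compared was left out (adjusted p from 0.0998 to 0.213) and in a fit to those libraries alone (0.08), and the call at DT3 was kept in each case. From DT4 to DT5 FD1 changed by 0.07 (SE 0.11, adjusted p = 0.644) and was not called. FD2 changed by -0.46 (SE 0.12, adjusted p = 0.029) at DT3, a call that was lost when any 1 of the 4 libraries was left out (adjusted p from 0.101 to 0.148) and without the filter (0.0578), and by -2.88 (SE 0.12, adjusted p = 3.62e-08) at DT5.

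The leaf reductases LFNR1 and LFNR2 hand electrons from ferredoxin to NADP+. The libraries held 959.6 and 942 TPM of LFNR1 (AT5G66190) in WW, 898 and 927 at DT2, 897 and 939 at DT3, 756 and 797 at DT4 and 362 and 328 at DT5. For LFNR2 (AT1G20020) the values were 396 and 419 TPM in WW, 479 and 503 at DT2, 508 and 474 at DT3, 184 and 259 at DT4 and 46.8 and 41.8 at DT5. Both DT2 and both DT3 libraries of LFNR1 were below those of WW, at DT3 by a narrow margin, and those of LFNR2 were above. At DT2 and DT3 LFNR2 differed from WW by 0.27 (SE 0.15, adjusted p = 0.395) and 0.27 (SE 0.15, adjusted p = 0.216), neither of them called. At DT4 LFNR1 changed by -0.29 (SE 0.10, adjusted p = 0.0229), a call that was lost without either WW library or DT4 library 1 (adjusted p from 0.0647 to 0.101) and in a fit to the 4 libraries alone (0.0848), and the step from DT3, of -0.24 (SE 0.10, adjusted p = 0.0574), was not called except with trimmed-mean rescaling (adjusted p = 0.00583) and without DT4 library 2 (0.0487). LFNR2 changed by -0.90 (SE 0.15, adjusted p = 4.85e-04) at DT4, and at DT5 the changes were -1.46 (SE 0.10, adjusted p = 5.92e-07) for LFNR1, the smallest fall of the 4 genes, and -3.17 (SE 0.15, adjusted p = 6.10e-08) for LFNR2, the largest.

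Of the ATP synthase, ATPD, the delta subunit that links the catalytic head to the stator, was called lower from DT3 on, and all 3 genes of the enzyme on the list were lower at DT4 and DT5. In WW, ATPD (AT4G09650) stood at 1587 and 1566 TPM, followed by 1291 and 1354 at DT2, 1101 and 1029 at DT3, 274 and 417 at DT4 and 125 and 124 at DT5. The DT2 values were below those of WW and each later group below the group before it. The change was -0.57 (SE 0.16, adjusted p = 0.042) at DT3 and -3.65 (SE 0.16, adjusted p = 5.25e-08) at DT5. The call at DT3 was lost when any 1 of the 4 libraries was left out (adjusted p from 0.136 to 0.160) and without the filter (0.0695). ATPG (AT4G32260) was at 1373 and 1374 TPM in the WW libraries, 1325 and 1218 at DT2, 1127 and 1168 at DT3, 784 and 834 at DT4 and 406 and 381 at DT5. ATPG, the nuclear-encoded stator subunit, fell least of the 3, with a log2 change of -1.80 (SE 0.10, adjusted p = 1.84e-07). ATPC1 (AT4G04640), the gamma subunit whose disulfide switches the enzyme between dark and light, averaged 1257 ± 16.7 TPM (SD, n = 2) in WW and 253 ± 26.0 TPM at DT5, a log2 change of -2.31.

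PGR5 and its membrane partner PGRL1, encoded by PGRL1A and PGRL1B, act in the antimycin-sensitive route of cyclic electron flow. These 3 genes went in different directions. For PGR5 (AT2G05620) the values were 227 and 226 TPM in WW, 190.2 and 188 at DT2, 193 and 180.2 at DT3, 188 and 186 at DT4 and 163 and 169 at DT5. All DT2 to DT5 libraries of PGR5 were under those of WW, within a narrow band up to DT4. PGR5 changed by -0.26 (SE 0.08, adjusted p = 0.157) at DT2, -0.28 (SE 0.08, adjusted p = 0.0462) at DT3, -0.28 (SE 0.08, adjusted p = 0.0142) at DT4 and -0.45 (SE 0.08, adjusted p = 7.50e-04) at DT5. The call at DT3 was lost when any 1 of the 4 libraries compared was left out (adjusted p from 0.122 to 0.198) and in a fit to those libraries alone (0.0543), and that at DT4 without either WW library (0.0644 and 0.0629). Neither the step from DT3 to DT4, of 0.0016 (SE 0.08, adjusted p = 0.99), nor that from DT4 to DT5, of -0.17 (SE 0.08, adjusted p = 0.121), was called.

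PGRL1A (AT4G22890) was at 522 and 548 TPM in the WW libraries, 509 and 493 at DT2, 455 and 468 at DT3, 268 and 321 at DT4 and 88.0 and 71.5 at DT5. The libraries held 36.5 and 31.9 TPM of PGRL1B (AT4G11960) in WW, 36.2 and 41.5 at DT2, 43.1 and 40.6 at DT3, 75.8 and 81.0 at DT4 and 99.0 and 92.9 at DT5. PGRL1A was the higher of the pair in all libraries up to DT4, and PGRL1B in both DT5 libraries. PGRL1A changed by -0.86 (SE 0.12, adjusted p = 2.04e-04) at DT4 and -2.74 (SE 0.12, adjusted p = 5.18e-08) at DT5. PGRL1B changed by 1.17 (SE 0.11, adjusted p = 1.85e-05) at DT4 and 1.46 (SE 0.11, adjusted p = 1.54e-06) at DT5, and its changes of 0.18 (SE 0.11, adjusted p = 0.462) at DT2 and 0.28 (SE 0.11, adjusted p = 0.104) at DT3 were not called. The last step of PGRL1B, from DT4 to DT5, was 0.29 (SE 0.11, adjusted p = 0.0571) and was called with trimmed-mean rescaling only (0.43, adjusted p = 0.00649). As the sum of the pair, PGRL1 transcripts went from 559 and 580.4 TPM in the WW libraries to 187 and 164 at DT5.

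Of the 36 genes 18 form 9 pairs that encode the same subunit. Reads of similar paralogs can be assigned to either gene, and the sources used here do not say how the authors' counting divided them, so the split within a pair is less certain than its sum. For each pair the log2 ratio of TPM + 1 was compared over the 5 groups by an exact permutation test over all 945 divisions of the 10 libraries into pairs, whose smallest possible p is 0.00106, with Benjamini-Hochberg adjustment over the 9 pairs. All 9 had an adjusted p under 0.05, from 0.00238 to 0.00847. The test shows that the ratio differed among the groups, not between which of them. How many pairs of unrelated genes would pass the same test was not computed. At DT5 28.1% of all genes were called lower and 43.4% higher against WW, so the count is not shown to be particular to paralogs.

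The largest shift was that of PGRL1A to PGRL1B, from a ratio of 15.2 in WW to 12.6 at DT2 and 10.8 at DT3, then 3.71 at DT4 and 0.829 at DT5. PETE1 to PETE2 went from 0.171 in WW to 0.287 at DT3, 0.576 at DT4 and 0.903 at DT5, and PSAH-1 to PSAH-2 from 0.286 in WW to 0.306 at DT3, then 0.632 at DT4 and 1.02 at DT5. In these 3 pairs the gene that dominated in WW lost most or all of its lead. At DT5 PETE2 was still the higher of its pair in both libraries, PSAH-2 in library 1 alone and PGRL1A in neither. LFNR1 to LFNR2 was 2.33 in WW, 1.87 at DT3 and 7.64 at DT5, and PSBO1 to PSBO2 moved from 2.46 to 4.64, so that here the dominant gene gained.

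FD1 to FD2 dipped from 0.244 in WW to 0.142 at DT3 and was 0.383 at DT5. PSBQ-1 to PSBQ-2 dipped from 0.643 in WW to 0.331 at DT4 and was 0.523 at DT5. PSAE-1 to PSAE-2 went from 3.30 to 2.25 at DT4 and 2.46 at DT5. The smallest shift was that of PSAD-1 to PSAD-2, 1.12 in WW, 0.986 at DT4 and 1.19 at DT5, a range of 0.27 on the log2 scale over the group means.

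**Figure D4:**
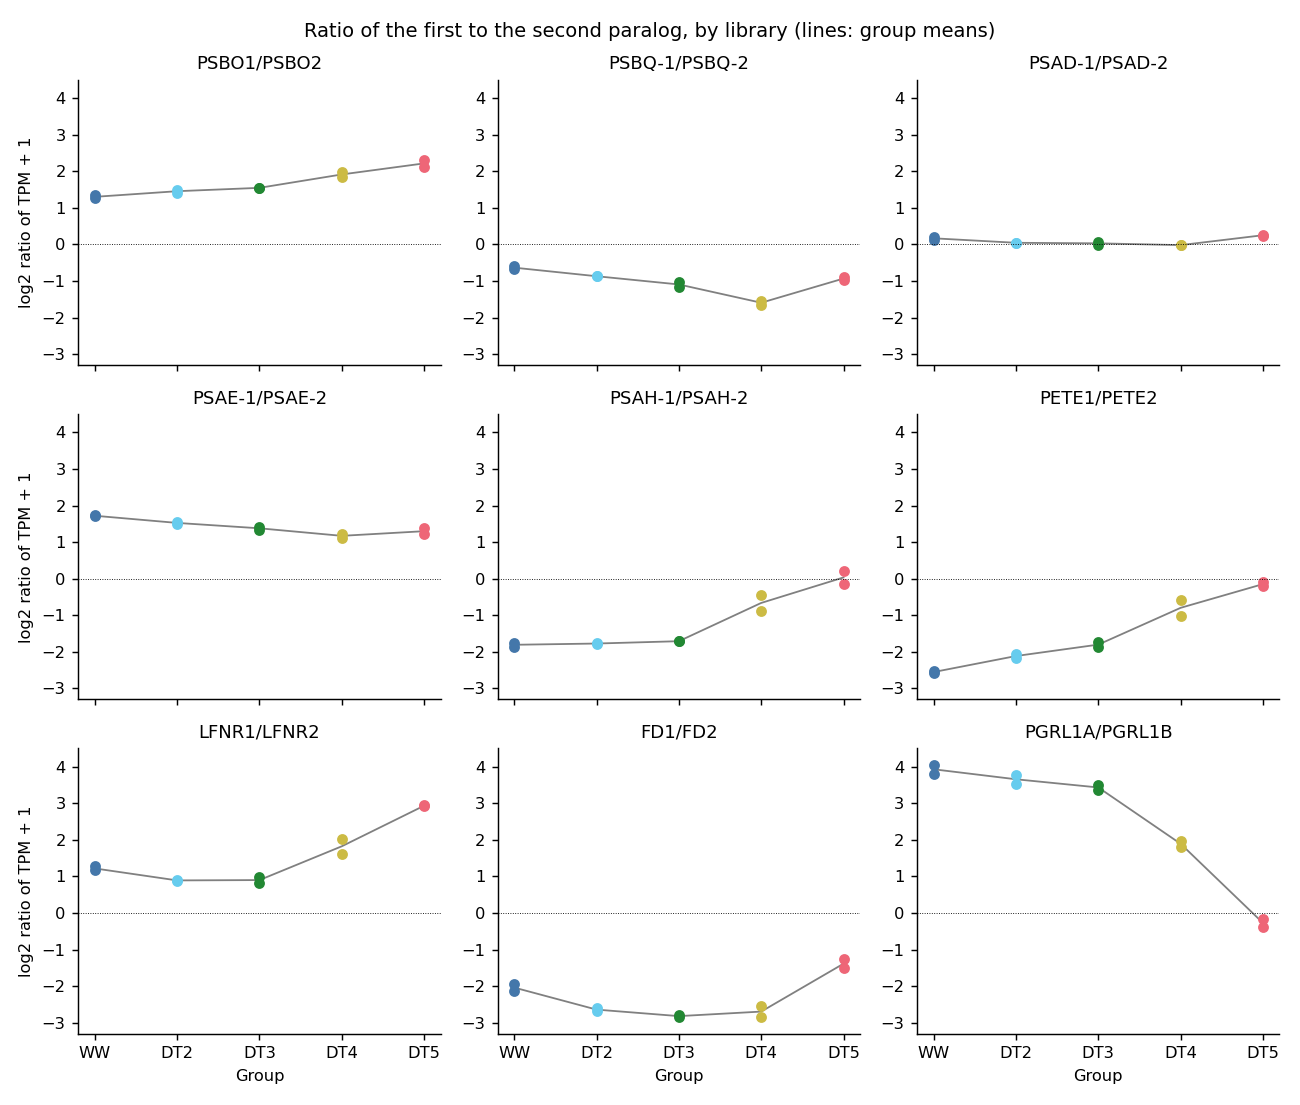
log2 ratio of TPM + 1 of the first to the second gene of each of the 9 pairs (vertical axis) in the 5 groups (horizontal axis). Points are libraries and lines join group means; the dotted line marks equal levels. PGRL1A/PGRL1B crosses it between DT4 and DT5, PSAH-1/PSAH-2 comes up from below to end at it, with library 1 below and library 2 above, and PETE1/PETE2 ends just below it.

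The 36 genes have 55 transcripts in the table, 22 genes with 1 and 14 with 2 or more. In 10 of those 14 the leading transcript had a mean share of at least 95%. In 3 genes, PSAN, LFNR2 and PGRL1A, 2 or more transcripts each had a mean share of at least 5%. The leading transcript of each was tested by its share of the gene. None of the 3 had an adjusted p under 0.05 in the exact permutation test over the 5 groups (0.157 to 0.318), nor an unadjusted one (0.0836 at the lowest, LFNR2). The leading transcript of LFNR2 held 88.7% and 87.3% of the gene in WW, 74.9% and 82.9% at DT4, and 74.4% and 79.2% at DT5, below WW in all 4 of these libraries.

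Of the 1354 circRNAs listed for Arabidopsis 1 came from a member gene. It was an exonic circRNA of PSAD-1 (AT4G02770), deposited at 1229465 to 1229648 of chromosome 4 on the + strand with a length of 183 bp, which is the end minus the start. The submitters' processing notes name the build TAIR10. The circRNA was at 41.3 and 44.3 in the DT2 libraries, in the authors' scaled signal, and at 0 in the other 8. Over all 1354 circRNAs and the 5 groups, only 1 case had 1 library of a group at 0 and the other above. A value above 0 in both DT2 libraries, or 0 in both libraries of another group, is thus not independent replication. Each DT2 value was 3 steps of its library, where the smallest nonzero value of a library is set to 2 steps and all nonzero values are then whole numbers of steps to within 0.02 of a step. The value thus lies 1 step above the smallest listed, and a 0 may stand for a value under that. It rests on few reads if a step is a read, which no source used here states. It was not listed in both groups of any comparison, so the test on circRNAs listed in both, of which 248 were available for DT2 against WW, gave no value for it. With values at 0 kept in the fit it was called higher at DT2, in a test that called 40.8% of all circRNAs higher or lower. There were 113 circRNAs above 0 at DT2 and at 0 in every other group. Among the 36 genes 1, or 2.78%, hosted a circRNA, beside 385 (9.01%) of the 4274 genes with a WW mean at or above that of the lowest member. The host PSAD-1 itself was at 2699 ± 226 TPM at DT2 (SD, n = 2), and both DT2 libraries lay below those of WW, a change that was not called.

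The nuclear subunits of the chloroplast NDH complex, which feeds electrons from ferredoxin into the chain by the other route of cyclic flow, fell with the 36 genes: at DT5 16 of 17 were lower and none higher, with a median log2 change of -3.31, where 28.1% of all genes were lower. PNSL4 (AT4G39710) changed by -5.64 (SE 0.23) and NDHU (AT5G21430) by -5.21 (SE 0.20). At DT4 14 of 17 were lower, 1 was higher and the median was -1.54. Of 32 genes for assembly and repair of the complexes 25 were lower, 3 higher and 4 not called at DT5, with a median of -0.71, and at DT4 15 were lower, 2 higher and 15 not called, with a median of -0.21 and 16.4% of all genes lower. CYP38 (AT3G01480), a lumenal cyclophilin needed to assemble photosystem II, changed by -2.90 (SE 0.15) and PPD1 (AT4G15510), needed for photosystem I assembly, by -2.80 (SE 0.21). FTSH8 (AT1G06430), a subunit of the protease that removes damaged D1 protein, was higher by 1.56 (SE 0.12), and CCB2 (AT5G52110), which acts in heme attachment to cytochrome b6, by 0.58 (SE 0.16).

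Among 8 isoforms of carriers and subunits that are not the main leaf forms, among them ATPC2 and PSBP-2, 4 were lower, 3 higher and 1 not called at DT5. Their median was -0.30, where 28.1% of all genes were lower and 43.4% higher. At DT3 0 were lower and 5 higher, with a median of 0.61 and 14.5% of all genes higher, and at DT4 2 were lower and 5 higher, with a median of 0.73 and 48.3% of all genes higher. FD3 (AT2G27510), a ferredoxin known from non-green tissue, was higher by 2.74 (SE 0.12) and the root-type reductase RFNR2 (AT1G30510) by 1.45 (SE 0.15). FDC1 (AT4G14890) changed by -3.16 (SE 0.12) and FDC2 (AT1G32550) by -1.02 (SE 0.12). Of 4 thylakoid kinases and phosphatases the kinase STN8 (AT5G01920), which phosphorylates photosystem II core proteins, and the phosphatase PBCP (AT2G30170), which acts on the same proteins, were lower, with changes of -1.69 (SE 0.14) and -0.75 (SE 0.12). STN7 (AT1G68830) and TAP38 (AT4G27800), the kinase and phosphatase of state transitions, were higher, by 0.46 (SE 0.10) and 0.83 (SE 0.11). Of 17 plastid-encoded identifiers 4 were lower and none higher at DT5, with 13 not called and a median of -0.13, and the share called lower is near that of all genes (28.1%). Many were at a few TPM in WW, such as ATCG00680 at 2.89 and 4.09, which leaves log2(TPM + 1) little room to fall. Of those with more, ATCG00480 went from 27.4 and 31.4 TPM in WW to 2.59 and 2.27 at DT5. ATCG00470 went from 26.1 and 19.5 to 1.52 and 1.36, and ATCG00120 from 10.2 and 14.0 to 1.79 and 2.94. The lowest change, -4.58, was that of ATCG00140, at 19.3 and 27.2 TPM in WW and at 0 in every library from DT3 on. Why it was at 0 was not tested. The median of the list thus does not describe these identifiers. ATCG00020 was at 27.0 and 23.8 TPM in WW and 43.0 and 60.6 at DT5, and was not called there. Its libraries differed widely at DT2 (170.6 and 19.4) and at DT4 (73.8 and 35.7). A plastid gene not called is thus not shown to be unchanged. The SE of the 17 reached 1.58, and how far the library preparation keeps plastid RNA was not tested. All changes in these lists are those of the limma fit at DT5 against WW, and each change given was called.

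**Figure D5:**
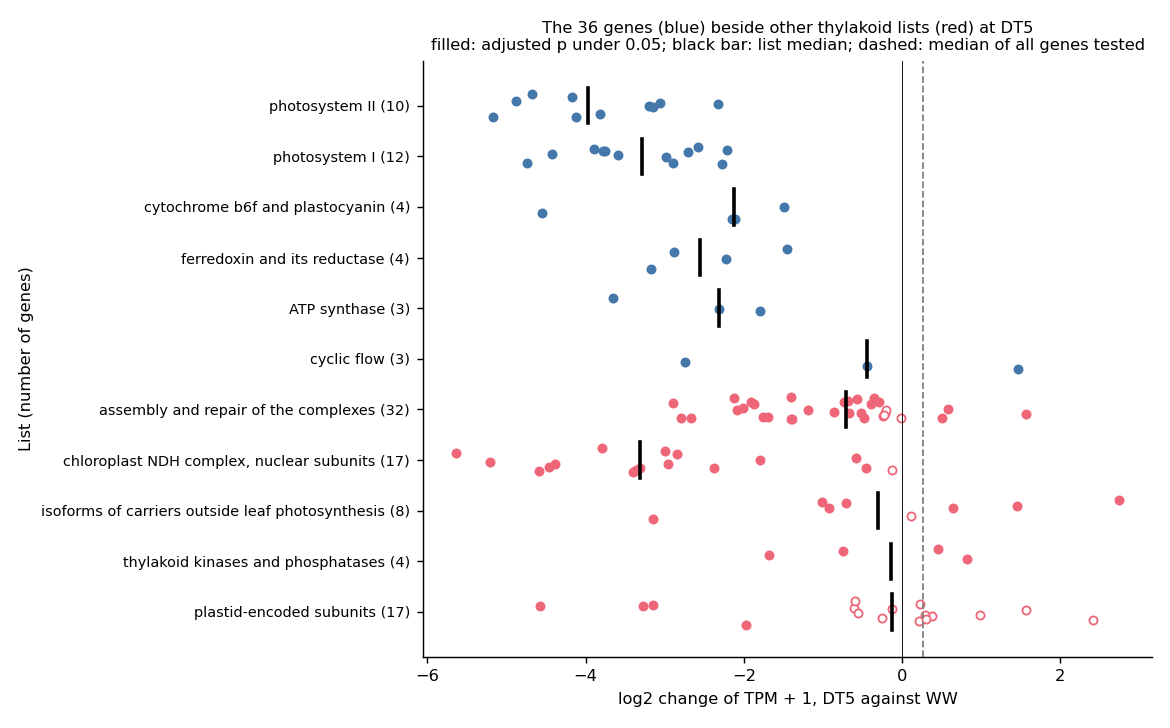
log2 change of TPM + 1 at DT5 against WW (horizontal axis) of each gene (points) in the 6 groups of the 36 genes (blue) and in 5 other lists (red), with list medians as black bars and the median of all genes tested, 0.26, as a dashed line. Filled points passed an adjusted p of 0.05. The NDH subunits spread as far to the left as photosystem II. Most plastid-encoded genes are open points near 0, many of them at only a few TPM in WW.

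The summed level of the 3 mesophyll markers was 46309 to 49533 TPM in WW, 41599.8 to 42089 at DT2, 39313 to 41433 at DT3, 18576 to 24071 at DT4 and 2681 to 3300.3 at DT5, and all 3 were called lower at DT4 and DT5; all 3 encode proteins of carbon fixation or light harvesting, so they belong to photosynthesis as well as to the cell type. The 4 guard cell markers summed to 36.6 to 37.0 TPM in WW and 12.4 to 16.0 at DT5, with all 4 lower, and the 3 epidermis markers to 170.1 to 197 and 70.2 to 71.9, with all 3 lower. The 2 phloem companion cell markers rose from 179.9 to 183 TPM in WW to 562 to 640.4 at DT4 and 979.7 to 1174 at DT5, and both were called higher; at DT2 and DT3 they summed to 211 to 279 and 207 to 251 TPM and neither was called. The 4 senescence markers summed to 48.5 to 54.5 TPM in WW, 91.3 to 93.6 at DT2, 95.6 to 102 at DT3, 213 to 245 at DT4 and 176 to 205 at DT5, with all 4 higher at DT4 and 3 at DT5. At DT2 and DT3 1 of the 4 was called higher, NAC092 (AT5G39610), a transcription factor of leaf senescence, by 1.42 (SE 0.11, adjusted p = 0.00159) and 1.49 (SE 0.11, adjusted p = 1.71e-04), at levels where 1 and 4 of the 36 genes were called. None of the others was called there: SAG13 changed by -1.09 and -0.17, NYE1 by -0.05 and -0.02, and SAG12 was at 0 TPM. The higher sum at DT2 and DT3 was thus that of NAC092, with means of 25.8 TPM in WW, 70.6 at DT2 and 74.1 at DT3. The 3 flower markers stayed at or below 2.62 TPM in sum. Of all genes tested, 16.4% were lower and 48.3% higher at DT4, and 28.1% were lower and 43.4% higher at DT5. At DT2 and DT3 1.47% and 14.5% were higher. The part of the marker levels in the result was not tested.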

How the data were processed

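Linear RNA of 10 Arabidopsis libraries and circular RNA of 10 further libraries, 2 of each kind per group, were used. The linear values are TPM per transcript as deposited by the authors, per the file headers; the deposited circRNA signal is made of multiples of a unit that differs between libraries, on a scale that no label or header states. BWA, edgeR, RSEM and the build TAIR10 are named in the submitters' processing notes, without versions or roles, and neither filters nor strand are given. Both tables were deposited per library, not pooled. The header of the linear table has 13 cells above 12 data fields, and the cell that names the unit was read as a caption. Columns were assigned to groups by name; their numbers could not be matched to the letters in the sample titles.

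Transcripts (48359) were summed to 27655 genes, and genes at a TPM of at least 1 in at least 2 libraries (18938) were tested. limma 3.58.1 under R 4.3.3 (moderated, two-sided, with a mean-variance trend) was fitted to log2(TPM + 1) of all 10 libraries, with Benjamini-Hochberg adjustment across every gene in the fit. This scale understates changes of genes with a low TPM. Ratios of paralogs and shares of transcripts were compared by exact permutation tests. circRNAs were tested with limma where listed in both groups. The gene fit and the permutation test were tested on simulated data. Python 3.11.15, pandas 2.3.3, numpy 2.4.6 and matplotlib 3.10.9 served for the rest. Read depth is unknown for TPM, so no counting interval is given. Where p-values are given they measure the spread between pools of plants.

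The 36 genes, the other lists and the tests were chosen with earlier results of these data known. Every member is accounted for, and values per library are given for both genes of a pair, for the largest and smallest change at DT5 in each complex, for members not called lower at DT5 and for the circRNA host. From other lists, the 2 genes that rose most and the 2 that fell most among those called at DT5 are named. For plastid identifiers counts and a few example levels are given. Symbols follow common usage, matched by locus to the RefSeq table of assembly TAIR10.1, in which all 36 have an entry; it lists AT4G21280 as PSBQA, AT1G52230 as PSAH2, AT1G20340 as DRT112, AT1G60950 as FED A, the reductases as FNR1 and FNR2, AT4G22890 as PGR5-LIKE A and AT4G32260 as PDE334. Alternatives changed the pseudocount (0.1 and 5), the filter, the scaling, the libraries in the fit, each replicate and a block for the library number.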

Additional observations from a re-analysis of the deposited data

Results flagged for a closer look

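The circRNA of PSAD-1 was listed at a mean of 42.8 in the authors' scaled signal at DT2 and at 0 in WW and in all other groups. It is listed here because it is a signal outside the linear RNA, above the level of the control libraries. It shares this with others: 113 of the 1354 circRNAs were above 0 at DT2 and at 0 in every other group, and 40.8% of all were called at DT2 with values at 0 kept. It stood at 3 steps in each DT2 library, 1 step above the smallest nonzero value of 2. The 2 libraries of a group were both above 0 or both at 0 for all circRNAs and groups but 1 case. Its listing in both DT2 libraries is thus not independent replication.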

How the results depend on the processing

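The counts at DT4 and DT5 against WW, and those of the steps to DT4 and to DT5 for genes that fell, stayed within 1.5 times under every alternative run, and no member's change at DT4 or DT5 against WW changed direction. At DT5 all 360 values of the 36 members kept their call, and at DT4 352 of 360 did. Without a library in turn, the members lower numbered 32 to 35 at DT4 and 35 at DT5. At DT2 the count of 1 became 0 in a fit to the 4 libraries compared, and 0 when any 1 of these was left out. At DT3 the count of 4 lower members became 2 without the filter, 16 with trimmed-mean rescaling, 8 in a fit to the 4 libraries compared and 1 when any 1 of these was left out; the cause was not tested. Trimmed-mean rescaling, which takes out a median shift of all genes of 0.12, 0.22, 0.41 and 0.26 against WW at the 4 levels, gave 1 member higher from DT4 to DT5 in place of 0. PGR5 from DT3 to DT4 changed sign with it (-0.19), and without DT3 library 2 or DT4 library 1 (-0.0476 to 0.0508 over the libraries left out), and FD1 from DT4 to DT5 without DT5 library 2 (-0.0544 to 0.186); neither was called in any case. All 9 paralog ratios, and 0 transcript shares, passed under each alternative run for them. With circRNAs at 0 kept, 1 member circRNA was called at DT2; the other circRNA alternatives gave no value, since none listed in both groups belongs to a member.

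The library numbers are not known to pair libraries: deviations of libraries with the same number correlated at -0.16 to 0.07 over 10 pairs of groups, none above 0.1. With the number as a replicate block, 2 members were lower at DT3 in place of 4, and no other count moved by more than 1.5 times.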
